A study of Homo sapiens with 18 samples.

Results

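The genes described here encode the SR proteins, the kinases that phosphorylate them, the proteins that build nuclear speckles, and splicing regulators found there. They were taken by name from a list of 43 symbols, after the rows of the deposited table had been summed per Ensembl gene ID and the IDs matched to symbols. Of the 43 listed genes, 39 were in the table, among 12755 gene IDs in all, and they held 445 of its 98665 rows. All 39 passed the filter on low values, which asked for a mean of 10 or more in the 18 libraries, and were tested among 10191 genes. SRSF2, SRSF8, LUC7L2 and NKTR are not analysed here. No measured value enters the rule. The 39 genes are grouped below by role into 9 SR proteins, 11 kinases and cyclins, 9 scaffolds and coactivators, and 10 splicing regulators.

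The 18 libraries came from MDA-MB-453 cells, an established breast cancer line, in 6 groups of 3: nuclear, total and cytoplasmic RNA of cells given JQ1-VHL for 3 hours, and the same fractions of cells given DMSO, the solvent, for that time. JQ1-VHL links the BET inhibitor JQ1 to a ligand of the VHL ubiquitin ligase and degrades BET proteins, which support transcription by RNA polymerase II. The sample titles call it dBET, and its dose is not given in the sources used here. Per the labels' protocols, 4-thiouridine (0.1 mM) was present for the final 60 minutes, so that T-to-C reads mark RNA made in that time, nuclei and cytoplasm were separated with digitonin at 1 mg/ml, and polyadenylated RNA was sequenced. The series asks where new transcripts are kept while transcription is inhibited.

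Pre-mRNA splicing factors gather in nuclear speckles, bodies that are built around SON and SRRM2. SR proteins carry an RNA-binding domain and a stretch rich in arginine and serine, bind exons and recruit the spliceosome, and several accompany mRNA on its export. SRPK kinases phosphorylate the arginine-serine stretch in the cytoplasm and CLK kinases in the nucleus, where this releases SR proteins from speckles. Many transcripts of these genes keep introns and stay in the nucleus, or carry poison exons that lead to their decay, and so limit the amount of protein made.

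Values are T-to-C reads divided by 1 factor per library from the ERCC spike-in RNA, and are called units. ERCC RNA was added in proportion to the mass of RNA, so units measure new RNA against the mass of RNA in a sample and say nothing about its amount in a cell. Since the samples are bulk RNA, fewer cells with a transcript and less of it per cell cannot be told apart. Each comparison is given on the ERCC scale and on a rescaled one, in which each library was divided by its median ratio to the other libraries of its fraction, so that a rescaled change is read against the typical gene. Log2 changes are on the log2(value + 1) scale, given as the estimate ± SE from limma, with p adjusted over all 10191 genes by Benjamini-Hochberg, and a change is called at an adjusted p under 0.05. Rescaling moved the median change of all tested genes from -1.82 to -0.11 in nuclear RNA, from -0.49 to -0.09 in the total fraction and from -0.02 to -0.11 in the cytoplasmic one.

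The libraries held 1.58 to 6.77 M recovered T-to-C reads (M, 1e06), each read counting as 0.470 to 2.75 units. JQ1-VHL nuclear replicate 3 stood apart, with 1.58 M reads and 30.5% of rows at 0, against 10.2% and 8.76% in the other JQ1-VHL nuclear libraries. The rescaling factors over all 18 libraries spread widely within groups, from 0.338 to 2.86 among the DMSO cytoplasmic ones, and the calls were repeated with each library left out. Markers of the line, which included KRT8, ERBB2 and FOXA1, were present for all 9 genes listed. Of 7 markers of other lineages only ALB and COL1A1 were in the table, and the others are not analysed here. All 6 mRNAs used as a cytoplasmic check (ACTB, GAPDH, RPLP0, RPS3, RPL3 and EEF1A1) were lower in nuclear than in cytoplasmic RNA under DMSO after rescaling. PVT1, the nuclear RNA that could be checked, was higher in nuclear RNA under DMSO after rescaling, by 1.57 on the log2 scale (limma adjusted p = 0.000272). On the ERCC scale its difference was 1.73 and not called (limma adjusted p = 0.133). Under JQ1-VHL PVT1 was called on neither scale, at 0.59 rescaled and -1.04 on the ERCC scale. The nuclear check was thus not passed under JQ1-VHL. The counted strand is not stated, and 12 of the 39 genes overlap another protein-coding gene, so reads of SRSF1, SRSF9, CLK2, CLK3, SRPK1, SRPK2, PRPF4B, SON, SRRM2, RBM5, RBM6 and DDX46 may in part be those of a neighbour.

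In new nuclear RNA every one of the 39 genes had a lower estimate under JQ1-VHL on the ERCC scale, as did 97.6% of all tested genes. The test was passed by 8: the SR proteins SRSF6 and SRSF7, the kinases CLK4 and CLK3, the cyclin CCNL1, the coactivator ARGLU1, and the splicing regulators RBM5 and TRA2A. That is 20.5% of them, and 33.7% of all tested genes were lower. None was higher, against 0.177% of all genes. The median change of the 39 was -1.41 and that of all genes -1.82, and 30 of the 39 lay above the median of all genes. After rescaling, 15 of the 39 were higher (38.5%, against 14.8% of all genes) and 2 were lower (5.13%, against 13.4%). All 15 had ERCC estimates below 0, from -1.12 to -0.50, so their direction is that against the typical gene only. The rescaling factors were 0.687, 0.937 and 0.248 in the JQ1-VHL nuclear libraries, against 3.15, 1.49 and 1.34 in the DMSO nuclear libraries. A gene that follows the typical one is therefore also without overlap in units. The share of all genes without overlap in units was not counted, so such a gap does not set a gene apart.

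**Figure D1:**
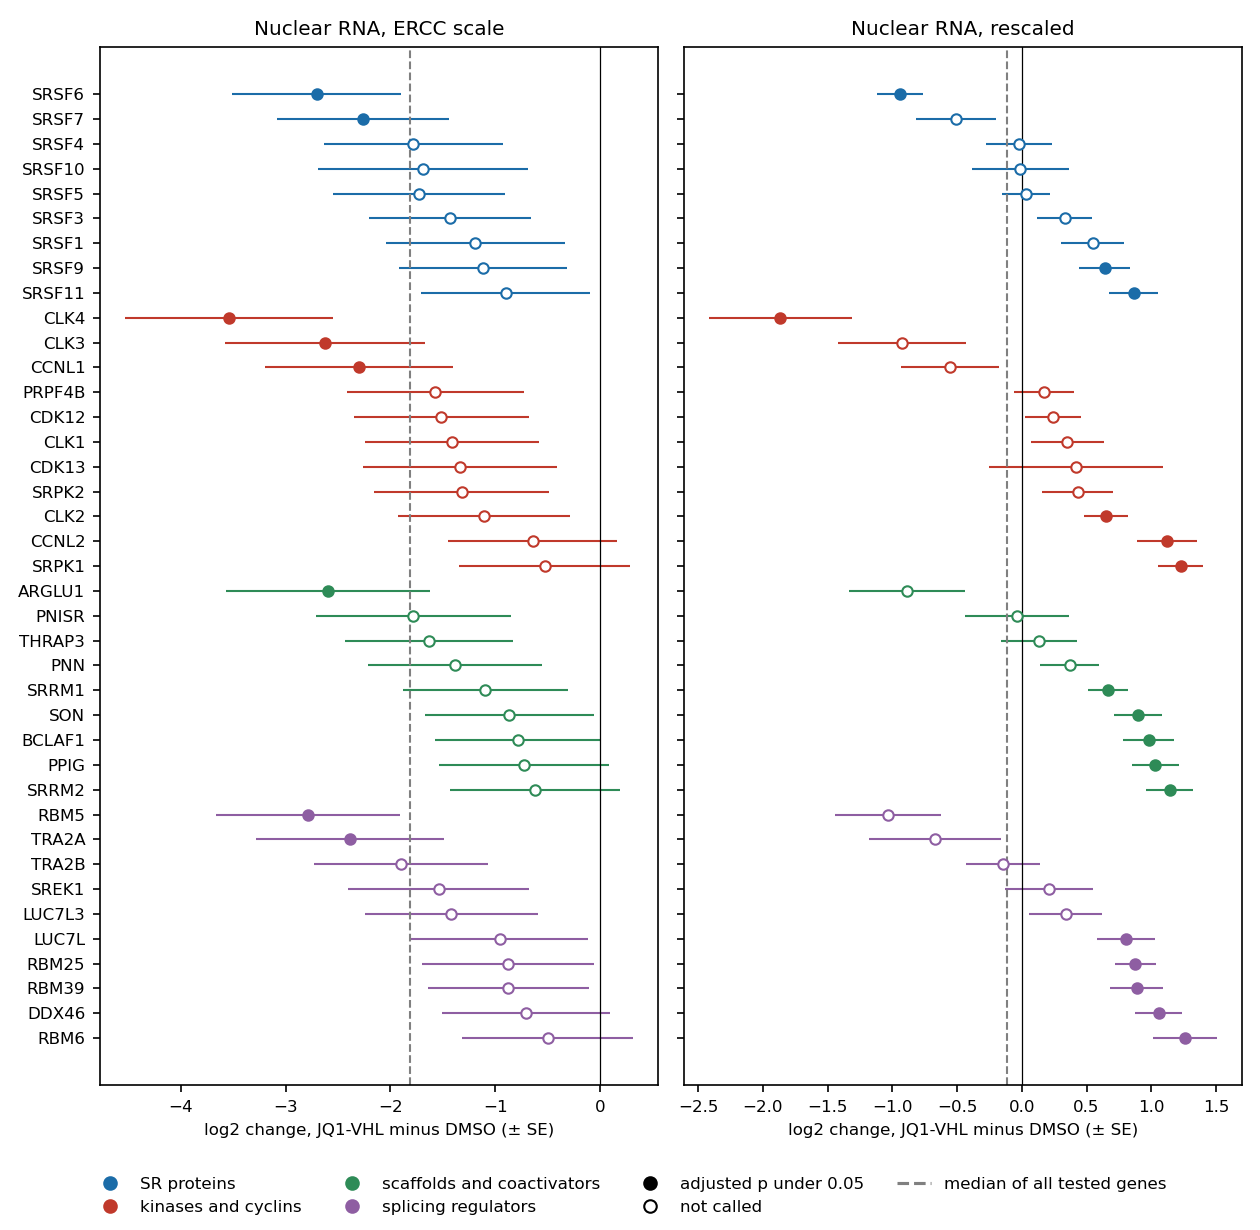
Log2 change of new nuclear RNA under JQ1-VHL relative to DMSO for the 39 genes, by role, on the ERCC scale and after rescaling, with bars of 1 SE. All 39 ERCC estimates lie below 0, as do those of 97.6% of all tested genes, and they run from -3.54 for CLK4 to -0.50 for RBM6. The rescaled ones run from -1.86 to 1.26 with 15 genes called higher, so the direction of most genes turns with the scale.

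Among the SR proteins, SRSF6, a regulator of alternative splicing, was lower on both scales. SRSF6 had 552, 670.3 and 143 units in the JQ1-VHL libraries, against 3853, 2025 and 1886 units in the DMSO libraries. All 3 JQ1-VHL values lay below every DMSO value, and replicate 3 was the lowest. SRSF6 changed by -2.70 ± 0.80 (adjusted p = 0.00850) on the ERCC scale and by -0.94 ± 0.17 (adjusted p = 0.000941) after rescaling. SRSF7, which also serves as an adaptor of the export receptor NXF1, had 244, 349 and 43.2 units in the JQ1-VHL libraries, against 1332, 578 and 543 units in the DMSO libraries, again without overlap. SRSF7 changed by -2.26 ± 0.82 (adjusted p = 0.0253) on the ERCC scale, and its rescaled estimate was -0.51 ± 0.31 (adjusted p = 0.224). The other 7 SR proteins were not called on the ERCC scale, with estimates from -1.78 for SRSF4 to -0.90 for SRSF11. SRSF3, another adaptor in export, had 1057, 1472 and 421 units in the JQ1-VHL libraries, against 3062, 2077 and 2032 units in the DMSO libraries, and its groups did not overlap either. The SRSF3 estimates were -1.43 ± 0.77 (adjusted p = 0.119) on the ERCC scale and 0.33 ± 0.21 (adjusted p = 0.249) rescaled. SRSF11, an SR-related factor, had 1086, 1169 and 1399 rescaled units in the JQ1-VHL libraries, against 565, 694 and 749.8 rescaled units in the DMSO libraries, so the JQ1-VHL values were all the higher ones. It rose by 0.86 ± 0.19 (adjusted p = 0.00296) after rescaling, with an ERCC estimate of -0.90. SRSF9, an SR protein with a short arginine-serine stretch, rose by 0.64 ± 0.20 (adjusted p = 0.0222) rescaled, with -1.12 on the ERCC scale.

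CLK4 was the most lowered of the 39 genes. It encodes a dual-specificity kinase that phosphorylates SR proteins in the nucleus. CLK4 had 34.0, 49.1 and 3.80 units in the JQ1-VHL libraries, against 367, 203 and 175 units in the DMSO libraries, and the lowest value came from JQ1-VHL nuclear replicate 3, where 8 reads were recovered. The groups lay far apart. CLK4 changed by -3.54 ± 0.99 (adjusted p = 0.00540) on the ERCC scale and by -1.86 ± 0.55 (adjusted p = 0.0183) after rescaling. CLK3, a kinase of the same family, had 45.2, 80.1 and 5.70 units in the JQ1-VHL libraries, against 316, 117 and 156 units in the DMSO libraries, with no overlap between the groups. Its change was -2.62 ± 0.96 (adjusted p = 0.0260) on the ERCC scale, and the rescaled estimate was -0.93 ± 0.49 (adjusted p = 0.163). CLK1 had 543, 648 and 124 units in the JQ1-VHL libraries, against 1339.7, 740.3 and 834 units in the DMSO libraries and did not pass on either scale, at -1.41 ± 0.83 (adjusted p = 0.150) and 0.35 ± 0.28 (adjusted p = 0.359) rescaled, although its groups did not overlap in units. CLK2, the remaining CLK gene, had 1007, 1033 and 1272 rescaled units in the JQ1-VHL libraries, against 650.2, 687 and 760.4 rescaled units in the DMSO libraries, with every JQ1-VHL value above the DMSO ones. CLK2 rose by 0.65 ± 0.17 (adjusted p = 0.00872) after rescaling, while its ERCC estimate was -1.11 ± 0.82 (adjusted p = 0.243). The 4 CLK genes thus took estimates from -1.86 to 0.65 on the rescaled scale, and differences between them were not tested.

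The cyclin L genes encode speckle cyclins that act in splicing. CCNL1 was called lower on the ERCC scale only, and CCNL2 was called higher after rescaling only. The difference between these genes was not tested. CCNL1 had 152, 227 and 22.8 units in the JQ1-VHL libraries, against 707, 353 and 396 units in the DMSO libraries, all 3 JQ1-VHL values being the lower ones. CCNL1 changed by -2.30 ± 0.90 (adjusted p = 0.0363) on the ERCC scale, and its rescaled estimate was -0.56 ± 0.38 (adjusted p = 0.273). CCNL2 had 1757, 2477 and 967 units in the JQ1-VHL libraries, against 3569, 2195 and 2050.3 units in the DMSO libraries, and these groups overlapped. After rescaling the CCNL2 values were 2559.7, 2644 and 3901 rescaled units in the JQ1-VHL libraries, against 1135, 1475 and 1531 rescaled units in the DMSO libraries, without overlap, and the gene rose by 1.12 ± 0.23 (adjusted p = 0.00180), with -0.64 on the ERCC scale. SRPK1, the main SR protein kinase of the cytoplasm, had the second largest rescaled rise of the 39 genes. It had 350.2, 452 and 473 rescaled units in the JQ1-VHL libraries, against 191, 189.7 and 159 rescaled units in the DMSO libraries, all JQ1-VHL values being the higher ones. SRPK1 rose by 1.23 ± 0.17 (adjusted p = 9.60e-05) rescaled, with -0.53 ± 0.82 (adjusted p = 0.560) on the ERCC scale. SRPK2, PRPF4B (a kinase of the spliceosome) and the RNA polymerase II kinases CDK12 and CDK13 were not called in nuclear RNA on either scale, with rescaled estimates of 0.43, 0.17, 0.24 and 0.42.

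Of the 9 scaffold and coactivator genes, 5 were higher after rescaling (55.6%, against 14.8% of all genes) and none was lower, against 13.4%. The splicing regulators were alike, with 5 of 10 higher and 0 lower, and role groups were not compared by a test. SRRM2, a core scaffold of speckles, had 1011, 1252 and 351 units in the JQ1-VHL libraries, against 2009, 972 and 829 units in the DMSO libraries, with overlapping groups. Rescaled, SRRM2 had 1472, 1336 and 1414 rescaled units in the JQ1-VHL libraries, against 639, 653 and 619 rescaled units in the DMSO libraries, with no overlap. It rose by 1.14 ± 0.18 (adjusted p = 0.000277) on that scale, and the ERCC estimate was -0.62 ± 0.81 (adjusted p = 0.496). SON, the other core scaffold, had 876, 905 and 1086 rescaled units in the JQ1-VHL libraries, against 478, 508 and 549 rescaled units in the DMSO libraries, again with the JQ1-VHL values on top. SON rose by 0.90 ± 0.18 (adjusted p = 0.00183) rescaled, with -0.87 on the ERCC scale. PPIG, a cyclophilin with an arginine-serine stretch, had 432, 509 and 738 rescaled units in the JQ1-VHL libraries, against 229.6, 293 and 279.6 rescaled units in the DMSO libraries. BCLAF1, an SR-rich protein of mRNA particles, had 1003, 1126 and 1550.0 rescaled units in the JQ1-VHL libraries, against 549, 632 and 656 rescaled units in the DMSO libraries. In both genes the JQ1-VHL libraries were the higher ones. PPIG rose by 1.03 ± 0.18 (adjusted p = 0.000654) and BCLAF1 by 0.98 ± 0.20 (adjusted p = 0.00160), and the coactivator SRRM1 rose by 0.67 ± 0.15 (adjusted p = 0.00410), all rescaled. Their ERCC estimates were -0.73, -0.78 and -1.09. ARGLU1, a coactivator of nuclear receptors that also acts in splicing, was the exception on the ERCC scale. It had 66.0, 65.9 and 7.60 units in the JQ1-VHL libraries, against 331, 155 and 164 units in the DMSO libraries, with no overlap. ARGLU1 changed by -2.60 ± 0.97 (adjusted p = 0.0297) on the ERCC scale, and its rescaled estimate was -0.88 ± 0.45 (adjusted p = 0.143). PNISR, PNN and THRAP3, which are SR-rich speckle proteins, were not called by limma on either scale, with ERCC estimates of -1.78, -1.39 and -1.63.

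Of the splicing regulators, RBM5 and its neighbour RBM6 were the lowest and the highest. RBM5, which controls exons of apoptosis genes, had 148, 246 and 30.9 units in the JQ1-VHL libraries, against 1207, 600.0 and 529 units in the DMSO libraries, and the JQ1-VHL values were all lower. RBM5 changed by -2.79 ± 0.87 (adjusted p = 0.0118) on the ERCC scale, with -1.03 ± 0.41 (adjusted p = 0.0648) rescaled. RBM6, a related regulator, had 1063, 1239 and 1734 rescaled units in the JQ1-VHL libraries, against 481, 553 and 623 rescaled units in the DMSO libraries, with the JQ1-VHL libraries on top. RBM6 rose by 1.26 ± 0.24 (adjusted p = 0.00126) rescaled and had -0.50 ± 0.81 (adjusted p = 0.578) on the ERCC scale. The genes overlap each other on the same strand, so either value may in part hold the other gene's reads. TRA2A, an SR-like activator of exons, had 126, 172 and 8.08 units in the JQ1-VHL libraries, against 474, 237 and 250.2 units in the DMSO libraries, without overlap. TRA2A changed by -2.39 ± 0.90 (adjusted p = 0.0301) on the ERCC scale and had -0.67 ± 0.51 (adjusted p = 0.330) rescaled. Its paralog TRA2B had -1.90 ± 0.83 (adjusted p = 0.0586) and -0.15 ± 0.28 (adjusted p = 0.725), and was called on the ERCC scale with the replicate number as a block (adjusted p = 0.0436). DDX46, a helicase of branch point recognition, had 774, 824 and 1259 rescaled units in the JQ1-VHL libraries, against 386, 451 and 509 rescaled units in the DMSO libraries, with the groups apart. It rose by 1.06 ± 0.18 (adjusted p = 0.000554) after rescaling, with -0.71 on the ERCC scale. RBM39, a relative of U2AF, rose by 0.89 ± 0.21 (adjusted p = 0.00422), RBM25, which acts with the U1 particle, by 0.88 ± 0.16 (adjusted p = 0.000665), and LUC7L, a protein of that particle, by 0.80 ± 0.22 (adjusted p = 0.0130), all rescaled, with ERCC estimates of -0.88, -0.88 and -0.96. LUC7L3 and SREK1 were not called by limma on either scale.

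**Figure D2:**
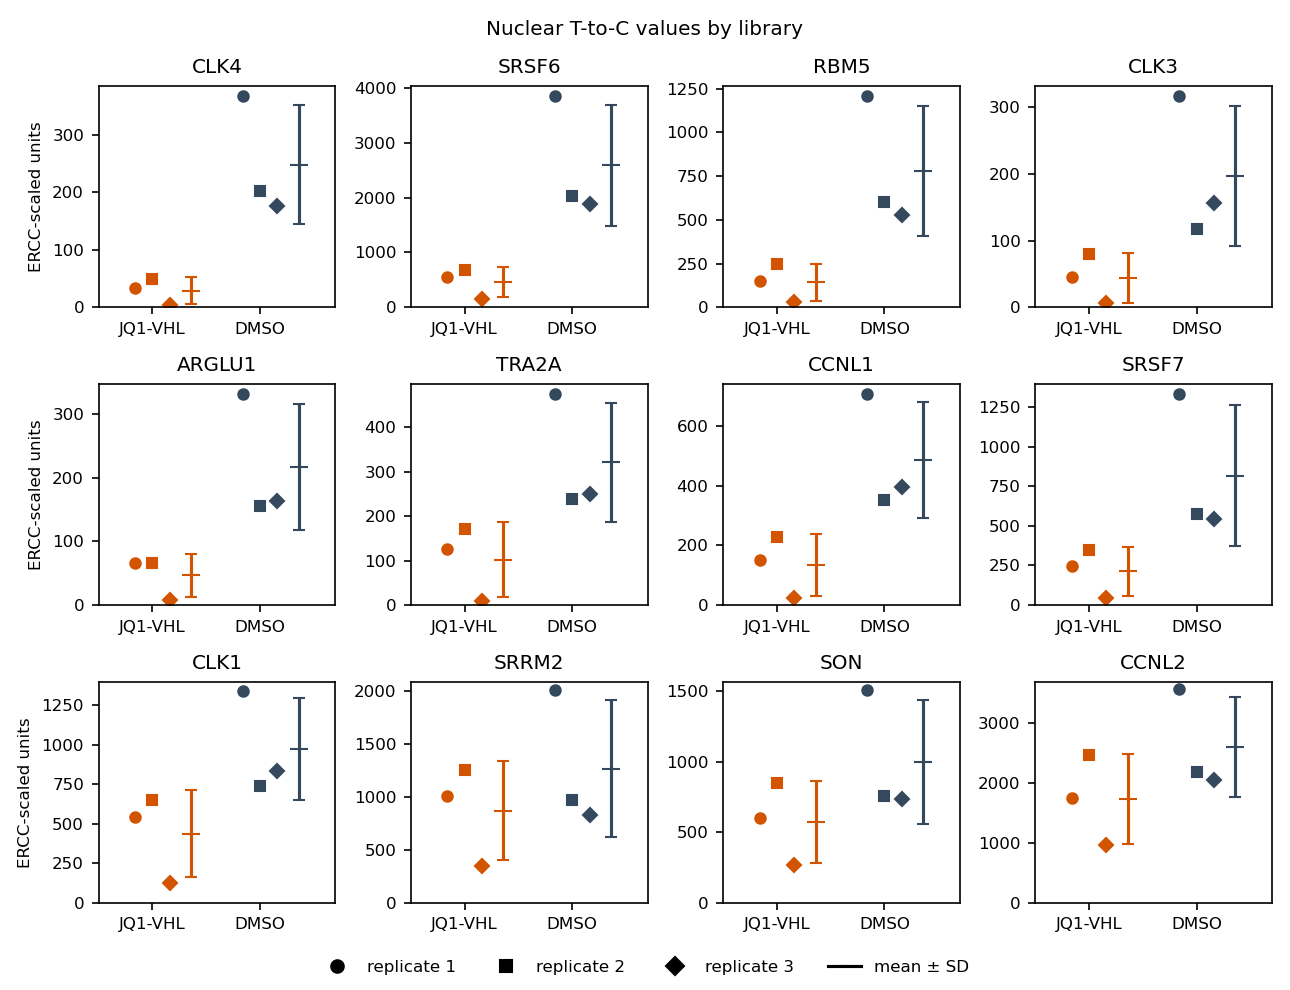
Units (ERCC scale) of 12 of the genes in each nuclear library, JQ1-VHL to the left of DMSO. Circles, squares and diamonds are replicates 1, 2 and 3, and dashes with bars the mean ± SD (n = 3). JQ1-VHL replicate 3 is the lowest library for CLK4, SRSF6 and SRRM2, and the 3 DMSO libraries of CLK4 (175 to 367 units) lie above all 3 JQ1-VHL libraries.

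The 8 ERCC-scale calls rest on single libraries. None passed without JQ1-VHL nuclear replicate 3, where CLK4 had an adjusted p of 0.140, and none without DMSO nuclear replicate 1, where it had 0.0759. There were 5 calls without DMSO nuclear replicate 2 and 4 without DMSO nuclear replicate 3. edgeR's quasi-likelihood test on the recovered reads called 3 of the 8 (CLK4, RBM5 and SRSF6) and no other gene of the 39, where it called 25.3% of all genes lower. DESeq2 called 7 genes of the 39 lower, against 40.6% of all genes: it kept CLK4, RBM5, SRSF6 and ARGLU1, lost CCNL1, CLK3, SRSF7 and TRA2A, and added PNISR, SREK1 and THRAP3. Of the 17 rescaled calls, 14 were kept whichever nuclear library was left out. CLK4 lost its rescaled call without JQ1-VHL nuclear replicate 3 (adjusted p = 0.120) and without DMSO nuclear replicate 1, 2 or 3 (adjusted p = 0.0501, 0.0571 and 0.0509). SRSF9 lost its rescaled call without JQ1-VHL nuclear replicate 1 or DMSO nuclear replicate 1 or 3, and LUC7L without DMSO nuclear replicate 3. In the same-numbered pairs, 39, 29 and 39 of the genes were lower in units, and 28, 32 and 26 were higher after rescaling. The median changes of the 39 in units were -1.88, -0.32 and -2.11, against -2.23, -0.72 and -2.42 for all genes. Rescaled, they were 0.31, 0.35 and 0.31, against -0.08, -0.07 and -0.10 for all genes. The 6 cytoplasmic check mRNAs also rose in rescaled nuclear RNA, all 6 of them with a median of 1.41, and their part in the rise of the 15 genes was not tested.

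Promoters are shown for the genes at the ends of the nuclear range: CLK4, RBM5 and SRSF6, which had the 3 lowest estimates on the ERCC scale, and RBM6, SRPK1 and SRRM2, which had the 3 highest after rescaling. Each is the 250 bases before the start of the gene, from RefSeq on GRCh38.p14, read along the gene's strand: chr5:178627051-178627300 for CLK4 (minus strand), chr3:50088669-50088918 for RBM5 (plus strand), chr20:43457646-43457895 for SRSF6 (plus strand), chr3:49939900-49940149 for RBM6 (plus strand), chr6:35921099-35921348 for SRPK1 (minus strand) and chr16:2752388-2752637 for SRRM2 (plus strand). By another annotation, GENCODE release 29, some of these genes start elsewhere. By that annotation the windows of CLK4 and SRRM2 lie inside the gene, and those of RBM5, SRPK1 and RBM6 do in part. The RBM5 window also lies inside RBM6. Capitals mark matches on either strand to TGACGT or to CCAAT, which reads ATTGG on the other strand.
CLK4: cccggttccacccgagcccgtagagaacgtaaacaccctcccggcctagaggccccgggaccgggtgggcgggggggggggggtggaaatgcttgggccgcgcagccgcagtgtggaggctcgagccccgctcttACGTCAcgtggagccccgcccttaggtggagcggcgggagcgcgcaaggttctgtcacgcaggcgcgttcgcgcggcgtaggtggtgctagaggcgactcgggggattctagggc
RBM5: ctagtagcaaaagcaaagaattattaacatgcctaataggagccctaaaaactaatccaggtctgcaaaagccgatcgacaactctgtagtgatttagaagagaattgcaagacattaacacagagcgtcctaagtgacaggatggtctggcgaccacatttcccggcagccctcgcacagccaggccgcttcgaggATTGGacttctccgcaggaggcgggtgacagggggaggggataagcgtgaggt
SRSF6: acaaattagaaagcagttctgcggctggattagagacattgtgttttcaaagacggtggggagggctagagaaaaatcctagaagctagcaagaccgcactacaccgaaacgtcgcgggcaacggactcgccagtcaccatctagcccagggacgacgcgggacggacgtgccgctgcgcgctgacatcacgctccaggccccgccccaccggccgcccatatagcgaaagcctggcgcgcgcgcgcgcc
RBM6: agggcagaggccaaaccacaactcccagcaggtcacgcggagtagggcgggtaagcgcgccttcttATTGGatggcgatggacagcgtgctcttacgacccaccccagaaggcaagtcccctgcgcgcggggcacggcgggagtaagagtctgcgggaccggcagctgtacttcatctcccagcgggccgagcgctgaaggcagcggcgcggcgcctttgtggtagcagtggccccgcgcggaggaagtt
SRPK1: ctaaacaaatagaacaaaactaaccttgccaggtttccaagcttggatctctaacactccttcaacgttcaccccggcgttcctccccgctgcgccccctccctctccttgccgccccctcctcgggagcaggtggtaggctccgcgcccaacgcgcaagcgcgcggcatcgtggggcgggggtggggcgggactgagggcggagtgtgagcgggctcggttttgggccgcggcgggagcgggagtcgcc
SRRM2: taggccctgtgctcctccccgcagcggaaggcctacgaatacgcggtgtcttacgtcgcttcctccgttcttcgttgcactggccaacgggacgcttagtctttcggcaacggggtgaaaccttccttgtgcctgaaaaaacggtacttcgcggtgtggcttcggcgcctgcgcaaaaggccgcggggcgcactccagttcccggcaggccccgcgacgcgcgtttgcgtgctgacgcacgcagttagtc
TGACGT, the core of the site of CREB and ATF factors, was searched on both strands. The other motifs were TATAAA (the TATA box), then CCAAT (the site of NF-Y), and finally CCGGAA (the core of many ETS sites). CLK4 held 1 match to TGACGT, and RBM5 and RBM6 held 1 each to CCAAT, while these windows of SRSF6, SRPK1 and SRRM2 held no match to any of the 4 motifs. Of 46 promoters that matched 35 of the genes, 10 (21.7%) held TGACGT, against 7.1% of all 35116 promoters in the table. TATAAA was in 4 of the 46 (10.7% of all), CCAAT in 10 (32% of all) and CCGGAA in 11 (14.5% of all). A match describes the letters alone, and several promoters can belong to 1 gene.

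In total RNA none of the 39 genes passed on the ERCC scale in the limma test, where 2.79% of all genes were lower and 0.245% higher, and 1 had an unadjusted p under 0.05. edgeR called 0 of the 39, and DESeq2 called 1 lower, against 8.64% of all genes. The gene nearest to a call was CLK4, with 48.1, 14.4 and 18 units in the JQ1-VHL libraries, against 485, 119.7 and 127 units in the DMSO libraries, and every JQ1-VHL value was below the DMSO ones. The CLK4 estimate was -3.01 ± 0.99 (adjusted p = 0.0651), and it was called with the replicate block (adjusted p = 0.0285). After rescaling 13 genes were higher (33.3%, against 15.4% of all genes) and 5 lower (12.8%, against 16.4%), with the ERCC estimate of each on the same side of 0. The 5 lower genes were CLK4 at -2.62 ± 0.55 (adjusted p = 0.00280), CCNL1 at -1.35 ± 0.38 (adjusted p = 0.0127), TRA2B at -0.92 ± 0.28 (adjusted p = 0.0205), the SR protein SRSF4 at -0.86 ± 0.25 (adjusted p = 0.0172) and SRSF6 at -0.58 ± 0.17 (adjusted p = 0.0179). edgeR did not call SRSF6 there.

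CCNL1 had 115, 156 and 71.3 rescaled units in the JQ1-VHL libraries, against 254, 289.6 and 293 rescaled units in the DMSO libraries, and its groups did not overlap. Among the higher genes, SRPK1 had 1188, 1040.5 and 1074 rescaled units in the JQ1-VHL libraries, against 568, 598 and 563 rescaled units in the DMSO libraries, with all JQ1-VHL values on top. SRPK1 rose by 0.93 ± 0.17 (adjusted p = 0.00138), RBM6 by 1.08 ± 0.24 (adjusted p = 0.00406) and DDX46 by 0.97 ± 0.18 (adjusted p = 0.00150). The remaining higher genes lay between 0.96 for SRSF9 and 0.48 for RBM25, and included SRRM2 (0.84), SRPK2 (0.75), CCNL2 (0.67) and PNN (0.63). These calls depended on single libraries: 9 were left without JQ1-VHL total replicate 2, 10 without JQ1-VHL total replicate 3, 9 without DMSO total replicate 1, 11 without DMSO total replicate 2 and 9 without DMSO total replicate 3. The 6 genes CLK4, DDX46, RBM6, SRPK1, SRRM2 and SRSF9 were kept whichever total library was left out.

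In cytoplasmic RNA CLK4 was the 1 gene of the 39 called on the ERCC scale (2.56%, against 3.67% of all genes lower), and none was higher, against 0.226% of all genes. CLK4 had 12.6, 15.1 and 1.40 units in the JQ1-VHL libraries, against 77.6, 30.9 and 165 units in the DMSO libraries, from 6, 7 and 1 reads against 47, 56 and 60 reads, so the JQ1-VHL values rest on few reads. It changed by -3.21 ± 0.99 (adjusted p = 0.0368) on the ERCC scale. That call was lost in edgeR and without JQ1-VHL cytoplasmic replicate 3, DMSO cytoplasmic replicate 1 or DMSO cytoplasmic replicate 3, and 5 genes were called without DMSO cytoplasmic replicate 2. After rescaling CLK4 had 10.6, 11 and 2.03 rescaled units in the JQ1-VHL libraries, against 54.0, 120.1 and 68.0 rescaled units in the DMSO libraries, without overlap, and changed by -3.36 ± 0.55 (adjusted p = 0.000407).

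Rescaled cytoplasmic values were lower for 9 genes (23.1%, against 18.4% of all genes) and higher for 3 (7.69%, against 8.85%). Of these 9, 6 were kinases and cyclins, a group of 11, and the difference between role groups was not tested. CCNL1 had 47.8, 26.8 and 24.3 rescaled units in the JQ1-VHL libraries, against 118, 92.2 and 64.6 rescaled units in the DMSO libraries, with all JQ1-VHL values lower, and changed by -1.47 ± 0.38 (adjusted p = 0.00839). CCNL2 had 296, 446 and 515 rescaled units in the JQ1-VHL libraries, against 883, 888 and 1176 rescaled units in the DMSO libraries, also without overlap, and changed by -1.25 ± 0.23 (adjusted p = 0.000879). CDK13 changed by -2.14 ± 0.67 (adjusted p = 0.0246), but JQ1-VHL cytoplasmic replicate 3 held 1 read of it. CLK3 (-1.37 ± 0.49 (adjusted p = 0.0465)) and PRPF4B (-0.70 ± 0.23 (adjusted p = 0.0316)) were the other kinases. edgeR did not call CDK13, CLK3, PRPF4B and ARGLU1, and DESeq2 did not call CLK3 and PRPF4B. TRA2B had 414, 349 and 191 rescaled units in the JQ1-VHL libraries, against 699, 731 and 884 rescaled units in the DMSO libraries, with the JQ1-VHL values lower, and changed by -1.34 ± 0.28 (adjusted p = 0.00256). ARGLU1 (-1.31 ± 0.45 (adjusted p = 0.0370)) and SRSF4 (-1.08 ± 0.25 (adjusted p = 0.00512)) were lower too. The 3 higher genes were CLK2, with 754, 844 and 884 rescaled units in the JQ1-VHL libraries, against 383, 347 and 368 rescaled units in the DMSO libraries and a change of 1.17 ± 0.17 (adjusted p = 0.000159), RBM6 at 1.11 ± 0.24 (adjusted p = 0.00335) and THRAP3, a partner of BCLAF1, at 1.06 ± 0.29 (adjusted p = 0.0129). The JQ1-VHL values of CLK2 were all the higher ones. The 7 genes CCNL1, CCNL2, CLK2, CLK4, RBM6, SRSF4 and TRA2B were kept whichever cytoplasmic library was left out. CDK13, CLK3, PRPF4B, ARGLU1 and THRAP3 were not, and the same-numbered pairs of THRAP3 changed by 0.64, 0.18 and 2.35 rescaled. Without JQ1-VHL cytoplasmic replicate 3 there were 7 calls in place of 12. With the replicate block there were 16, which added BCLAF1 (adjusted p = 0.0179) and DDX46 (adjusted p = 0.0397) as higher and SRSF6 (adjusted p = 0.0341) and RBM39 (adjusted p = 0.0293) as lower.

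The drug effect in nuclear RNA minus that in cytoplasmic RNA was tested for each gene after rescaling within each fraction. It was positive for 3 of the 39 (7.69%, against 1.55% of all genes) and negative for none, against 1.06% of all genes. CCNL2 stood first, at 2.37 ± 0.32 (adjusted p = 0.000857): its rescaled change was 1.12 in the nucleus and -1.25 in the cytoplasm. RBM39 followed at 1.37 ± 0.29 (adjusted p = 0.0178), from 0.89 in the nucleus and -0.48 in the cytoplasm, and RBM25 at 0.98 ± 0.22 (adjusted p = 0.0253), from 0.88 and -0.10. On the ERCC scale the differences were 0.51 for CCNL2, -0.50 for RBM39 and -0.89 for RBM25, so the sign of RBM39 and RBM25 turned with the scale. In limma no gene of the 39, and 0.00% of all genes, passed on the ERCC scale, where 6 of the 39 had an unadjusted p under 0.05, and edgeR and DESeq2 called 0 of the 39 there.

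CCNL2 was called under every alternative, with values from 2.11 to 2.51, and RBM39 likewise with values from 1.09 to 1.51. RBM25 ranged from 0.70 to 1.18 and lost its call in edgeR (adjusted p = 0.117) and without JQ1-VHL cytoplasmic replicate 3, JQ1-VHL nuclear replicate 1 or 2, or DMSO nuclear replicate 1, 2 or 3 (adjusted p = 0.0501 to 0.0698). The count was 7 without DMSO cytoplasmic replicate 3, 6 without JQ1-VHL nuclear replicate 3, and 8 in DESeq2, which called 5.89% of all genes higher. SON (0.96 ± 0.26 (adjusted p = 0.0539)) and SRPK1 (0.81 ± 0.25 (adjusted p = 0.0808)) were the next by p, and SON was called with the replicate block (adjusted p = 0.0421), and both in DESeq2. RBM5 had the most negative difference, at -1.78 ± 0.58 (adjusted p = 0.0970), and was called in edgeR and DESeq2.

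**Figure D3:**
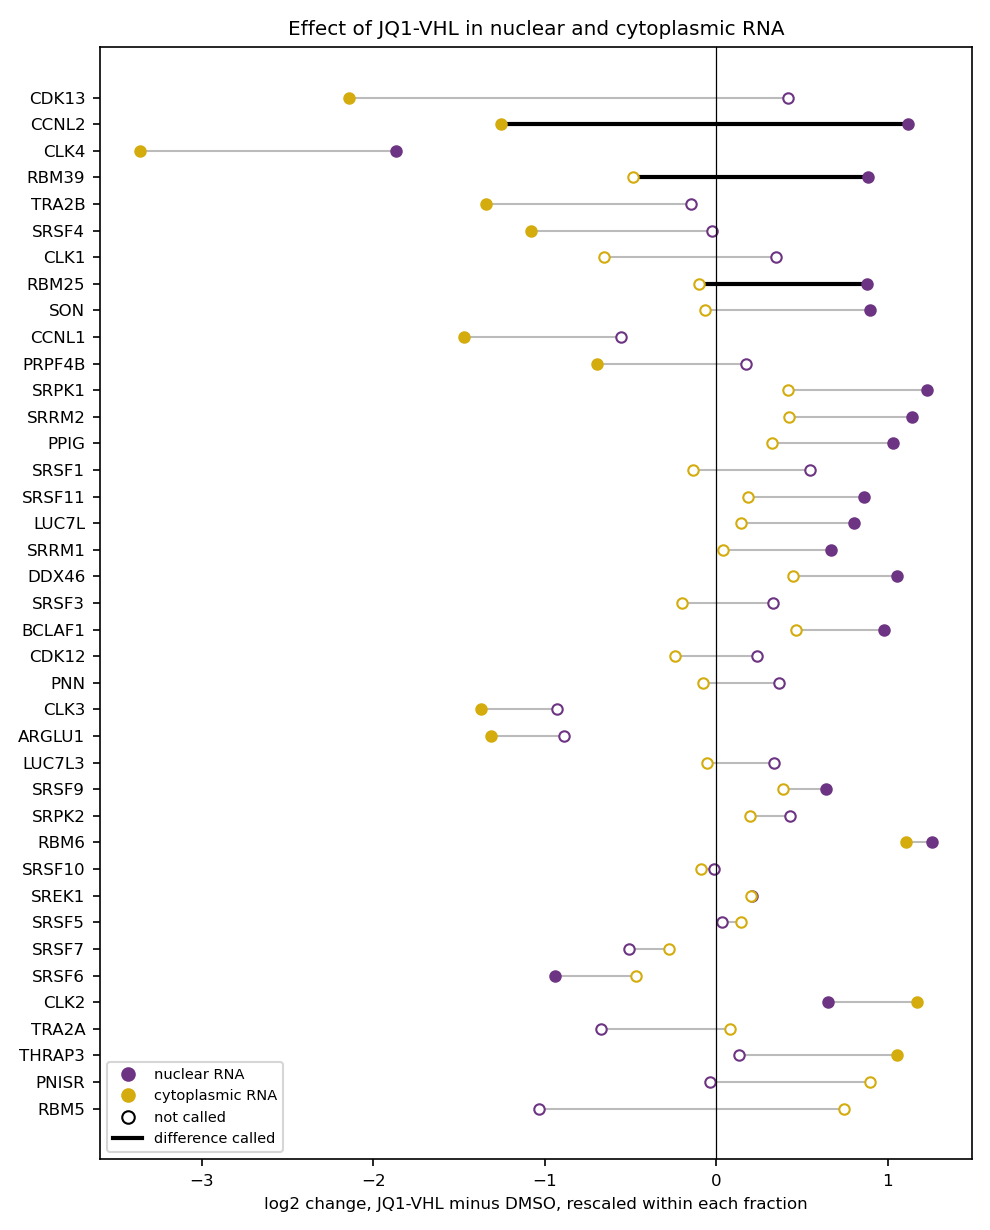
Rescaled log2 change under JQ1-VHL in nuclear and in cytoplasmic RNA for the 39 genes. A line links the nuclear and cytoplasmic estimates of each gene, black at the genes whose effects differed between the fractions and grey elsewhere. No SE is drawn. CCNL2 is higher in the nucleus (1.12) and lower in the cytoplasm (-1.25) on this scale, while on the ERCC scale its nuclear estimate is -0.64.

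Nuclear and cytoplasmic RNA were compared within each treatment, with values rescaled over all 18 libraries. Under DMSO 14 of the 39 were higher in nuclear than in cytoplasmic RNA (35.9%, against 33.0% of all genes) and 16 lower (41.0%, against 23.7%). Under JQ1-VHL 15 were higher (38.5%, against 38.7%) and 15 lower (38.5%, against 26.0%). The medians of the 39 were -0.09 under JQ1-VHL and -0.34 under DMSO, and those of all genes 0.65 under JQ1-VHL and 0.48 under DMSO. On the ERCC scale 15 were lower and 0 higher under JQ1-VHL (28.8% and 3.01% of all genes), and 4 were lower and 3 higher under DMSO (5.92% and 14.7%). Of the 15 genes called higher in the nucleus under JQ1-VHL after rescaling, 7 had ERCC estimates below 0. The genes called lower under JQ1-VHL, and those called in either direction under DMSO, had ERCC estimates of the same sign. The 7 calls on the ERCC scale under DMSO became 14 without DMSO cytoplasmic replicate 2, and 4 without DMSO nuclear replicate 2 or 3.

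Among the SR proteins, 5 of 9 were lower in nuclear RNA under DMSO after rescaling (55.6%, against 23.7% of all genes). SRSF4 was the 1 that was higher (11.1%, against 33.0%). SRSF3 had 1371, 1886 and 2027 rescaled units in the DMSO nuclear libraries, against 12254, 20495 and 26424 in the DMSO cytoplasmic libraries, far apart. The difference for SRSF3 was -3.43 ± 0.22 (adjusted p = 3.79e-10) under DMSO and -2.97 ± 0.22 (adjusted p = 2.92e-09) under JQ1-VHL. SRSF9 had 306, 403 and 354 rescaled units in the DMSO nuclear libraries, against 2378, 3031 and 4315 in the DMSO cytoplasmic libraries, and SRSF1, the founding SR protein, had 93.1, 98.4 and 68.9 rescaled units in the DMSO nuclear libraries, against 443, 474 and 839 in the DMSO cytoplasmic libraries. The nuclear values were again the lower ones in both. SRSF9 differed by -3.16 ± 0.20 (adjusted p = 3.99e-10) and SRSF1 by -2.69 ± 0.26 (adjusted p = 6.84e-08) under DMSO, and by -2.96 and -2.07 under JQ1-VHL. SRSF4 had 605, 515 and 412 rescaled units in the DMSO nuclear libraries, against 149, 175 and 101 in the DMSO cytoplasmic libraries, with the nuclear values on top, and differed by 1.86 ± 0.25 (adjusted p = 4.25e-06).

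The CLK and cyclin L genes mostly took the nuclear side. CCNL1 had 316, 321 and 395 rescaled units in the DMSO nuclear libraries, against 94.1, 70.3 and 54.9 in the DMSO cytoplasmic libraries, again without overlap, and differed by 2.25 ± 0.37 (adjusted p = 4.74e-05) under DMSO. Under DMSO the difference was 1.32 for CLK1, 1.70 for CLK2, 1.50 for CLK4 and 1.26 for CCNL2, all called, and 1.18 ± 0.50 (adjusted p = 0.0510) for CLK3, which was not. CLK3 was called with the replicate block (adjusted p = 0.0488), a pseudocount of 10, edgeR or DESeq2, and without DMSO cytoplasmic replicate 3. CCNL2 had 3769, 3854 and 5775 rescaled units in the JQ1-VHL nuclear libraries, against 263, 401 and 469 in the JQ1-VHL cytoplasmic libraries, where its difference was 3.57 ± 0.24 (adjusted p = 1.01e-09). SRPK2, the second SR protein kinase of the cytoplasm, had 148, 170.3 and 214 rescaled units in the DMSO nuclear libraries, against 606, 716 and 787 in the DMSO cytoplasmic libraries, with the nuclear values lower. SRPK1 and SRPK2 thus took the opposite side, at -1.93 and -1.99 under DMSO and -1.18 and -1.82 under JQ1-VHL. The kinases PRPF4B (-1.84) and CDK12 (-0.51) were lower in nuclear RNA under DMSO too. Neither the CDK12 call nor the CLK4 call under DMSO was kept in every fit with a library left out. The CDK12 call was also not kept under every other alternative.

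Splicing regulators lay between -1.91 for DDX46 and 3.39 for RBM5 under DMSO. RBM5 had 540.3, 545 and 528 rescaled units in the DMSO nuclear libraries, against 69.4, 73.6 and 25.0 in the DMSO cytoplasmic libraries, and LUC7L had 584, 527 and 475 rescaled units in the DMSO nuclear libraries, against 74.0, 81.7 and 117 in the DMSO cytoplasmic libraries. Both were far higher in the nucleus, RBM5 by 3.39 ± 0.40 (adjusted p = 8.91e-07) and LUC7L by 2.55 ± 0.23 (adjusted p = 3.01e-08). Under JQ1-VHL the difference was 1.55 ± 0.40 (adjusted p = 0.00238) for RBM5 and 3.16 ± 0.23 (adjusted p = 2.98e-09) for LUC7L. Among scaffolds and coactivators, PPIG had 323, 397 and 373 rescaled units in the DMSO nuclear libraries, against 2186, 2475 and 2204 in the DMSO cytoplasmic libraries, with the nuclear values all lower, and differed by -2.65 ± 0.18 (adjusted p = 7.55e-10). BCLAF1 had 773, 854 and 877 rescaled units in the DMSO nuclear libraries, against 3134, 3526 and 4127 in the DMSO cytoplasmic libraries, and the nuclear values were lower there too. BCLAF1 (-2.10), SRRM1 (-1.75) and SON (-1.34) were lower in nuclear RNA under DMSO as well, while ARGLU1, PNISR (1.45) and SRRM2 (0.62) were higher. The calls of PNISR and SRRM2 were kept with each library left out, but not under every other alternative. ARGLU1 had 148, 141 and 163 rescaled units in the DMSO nuclear libraries, against 36.5, 26.2 and 52.0 in the DMSO cytoplasmic libraries, with the nuclear values on top, and differed by 2.00 ± 0.45 (adjusted p = 0.00103). All signed values in this paragraph, and those given with ±, are differences of rescaled log2 levels within a gene, and levels of different genes are not compared.

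**Figure D4:**
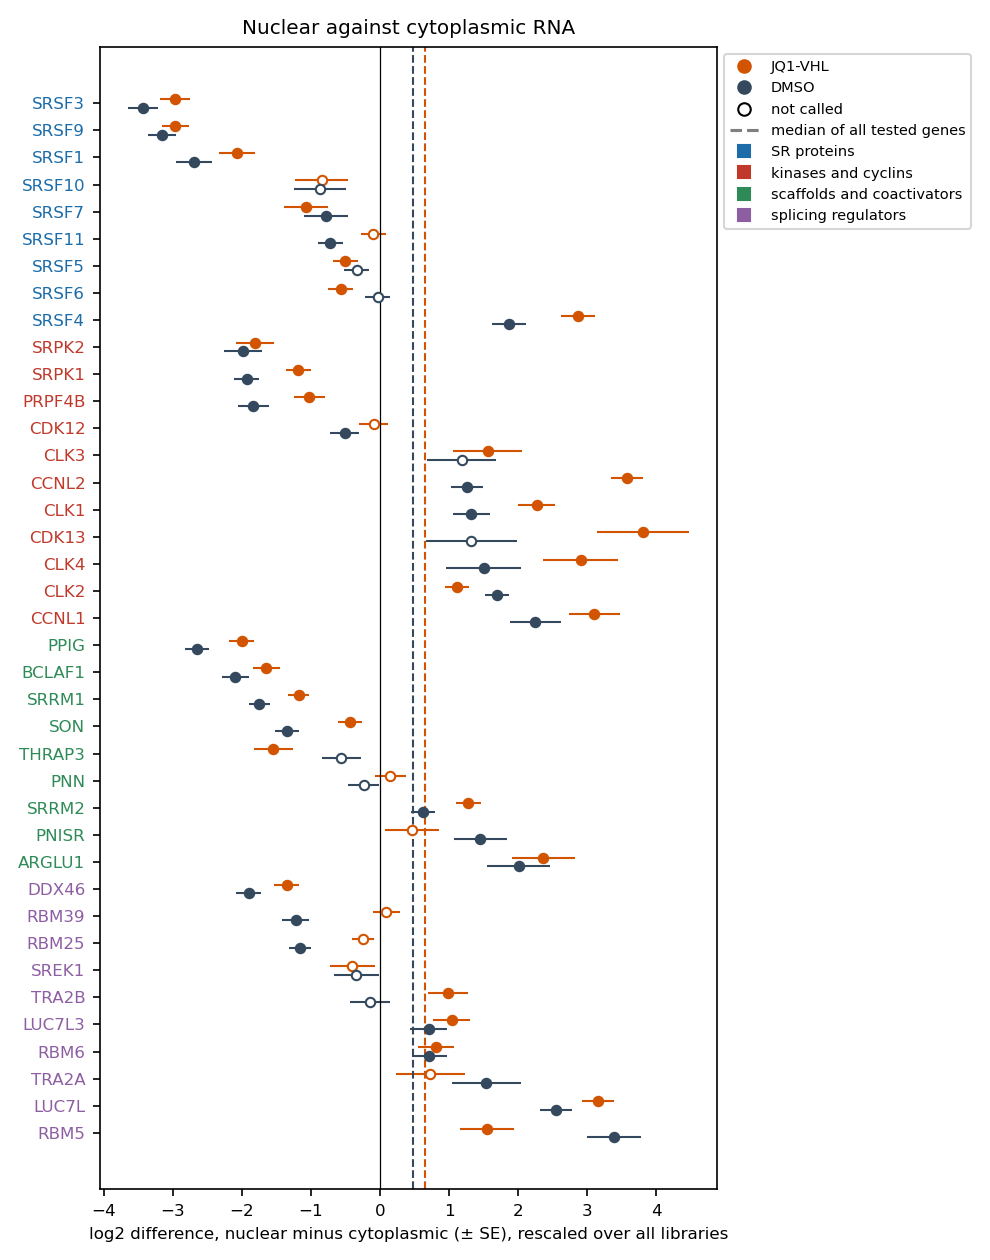
Difference of rescaled log2 levels between nuclear and cytoplasmic RNA for the 39 genes under JQ1-VHL (orange) and DMSO (blue), with bars of 1 SE. Under DMSO, SRSF3 lies at -3.43 and RBM5 at 3.39, and 7 of the 15 genes called higher under JQ1-VHL have ERCC estimates below 0.

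The table counts reads in numbered rows within each gene, called intervals here, and this allowed a test of where along a gene reads were gained or lost relative to the rest of that gene. Which exon or intron an interval covers was not settled, so intervals carry their numbers only, and neighbouring intervals can share fragments. Of the 39 genes, 34 have annotated transcripts that retain an intron, and the share of all genes that do was not counted. SRSF6, SRSF11, CLK2, PNISR and THRAP3 have none. With edgeR's diffSpliceDGE on the recovered reads, 347 intervals of the 39 genes were tested. Relative to their gene, 13 fell in nuclear RNA under JQ1-VHL (3.75%, against 3.97% of 46694 intervals) and none was higher, against 0.745%. In total RNA 22 fell (6.34%, against 6.07%) and none was higher, against 0.366%. In cytoplasmic RNA 10 fell (2.88%, against 2.05%) and 1 was higher (0.288%, against 0.197%). The shares of the 39 genes thus lay near those of all intervals. limma's diffSplice, the test first planned, called 0 of the 347 in each of these 3 comparisons (0.0107%, 0.191% and 0.203% of all intervals), with 2, 10 and 20 at an unadjusted p under 0.05 in nuclear, total and cytoplasmic RNA.

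Intervals 6 and 7 of CCNL2 fell in all 3 fractions. In nuclear RNA they changed by -2.07 (adjusted p = 0.00239) and -1.99 (adjusted p = 0.00271) relative to the gene, in total RNA by -1.94 (adjusted p = 0.00725) and -2.60 (adjusted p = 6.82e-05), and in cytoplasmic RNA by -2.37 (adjusted p = 0.0184) and -2.10 (adjusted p = 0.0180). These intervals held 0.666, 1.12 and 0.442% in the JQ1-VHL libraries, against 3.56, 2.61 and 3.10% in the DMSO libraries of the nuclear reads of CCNL2. The JQ1-VHL shares were all the lower ones, and the 95% Wilson interval of a library's share reached at most 0.551 percentage points to either side, for counting error only. Interval 4 of SRSF11 fell in all 3 fractions as well, at -1.68 (adjusted p = 0.00105) in nuclear, -2.01 (adjusted p = 0.000101) in total and -2.63 (adjusted p = 0.00402) in cytoplasmic RNA. Intervals 3 to 5 of SRSF11 together held 6.35, 5.54 and 2.60% in the JQ1-VHL libraries, against 19.3, 18.3 and 13.3% in the DMSO libraries of its nuclear reads, without overlap.

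Intervals 4 to 6 of SRSF6 fell in total RNA, at -1.36 (adjusted p = 0.0344), -1.54 (adjusted p = 0.00303) and -1.50 (adjusted p = 0.00438). Their share of the SRSF6 reads was 13.5, 14.0 and 5.46% in the JQ1-VHL libraries, against 32.3, 32.1 and 31.9% in the DMSO libraries of total RNA. The JQ1-VHL shares were well below the DMSO ones. In cytoplasmic RNA the same intervals fell too, interval 4 at -2.07 (adjusted p = 0.0235), and the share was 4.25 ± 0.814% under JQ1-VHL and 14.5 ± 6.70% under DMSO (SD, n = 3). In nuclear RNA none of the 3 was called, at 28.6 ± 10.7% under JQ1-VHL and 44.5 ± 2.29% under DMSO. SRSF5, which like SRSF6 binds exon enhancers, lost intervals 3 and 4 in total RNA, at -2.16 (adjusted p = 0.000696) and -1.52 (adjusted p = 0.0120). Their share was 11.9, 7.72 and 7.88% in the JQ1-VHL libraries, against 36.9, 31.8 and 28.4% in the DMSO libraries, again with no overlap. For SRSF7, interval 4 fell in total RNA, at -1.70 (adjusted p = 0.0222), and intervals 1 to 4 held 11.4 ± 4.24% under JQ1-VHL and 38.1 ± 3.91% under DMSO of its total reads. Intervals 7 to 9 of SRRM2 held 7.70 ± 4.45% under JQ1-VHL and 20.8 ± 1.88% under DMSO of its nuclear reads, and 8 and 9 fell there, at -1.41 (adjusted p = 0.0361) and -1.44 (adjusted p = 0.0407). The sets of intervals, and those named in total and cytoplasmic RNA, were chosen after their values were seen, and the shares are descriptions.

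SRSF4 held the 1 interval that was called higher in a drug comparison. Interval 10 was higher in cytoplasmic RNA by 1.89 (adjusted p = 0.00464) relative to the gene, at 57.1 ± 19.4% under JQ1-VHL and 13.6 ± 10.5% under DMSO of the SRSF4 reads there. The JQ1-VHL cytoplasmic libraries held only 46, 55 and 37 SRSF4 reads. Its share was also larger under JQ1-VHL in nuclear RNA (61.0 ± 9.17% against 37.6 ± 3.01%) and total RNA (63.3 ± 2.40% against 35.9 ± 2.28%), without overlap, but it was not called there. Other genes with lowered intervals in nuclear RNA were RBM25 (interval 18, -2.50), LUC7L (interval 3, -1.58), RBM39 (intervals 1 and 2, -1.37 and -0.94), CLK2 (interval 5, -1.34) and SRRM1 (interval 15, -1.17). The gene totals of RBM39, RBM25, LUC7L, CLK2, CCNL2, SRSF11, SRRM1 and SRRM2 all rose after rescaling in the same RNA. The interval values are relative to those gene totals. The nuclear effect minus the cytoplasmic one was called for 0 of the 347 intervals by diffSpliceDGE (0.105% of all intervals), with 19 at an unadjusted p under 0.05, and for 0 by limma (0.00%), with 1.

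**Figure D5:**
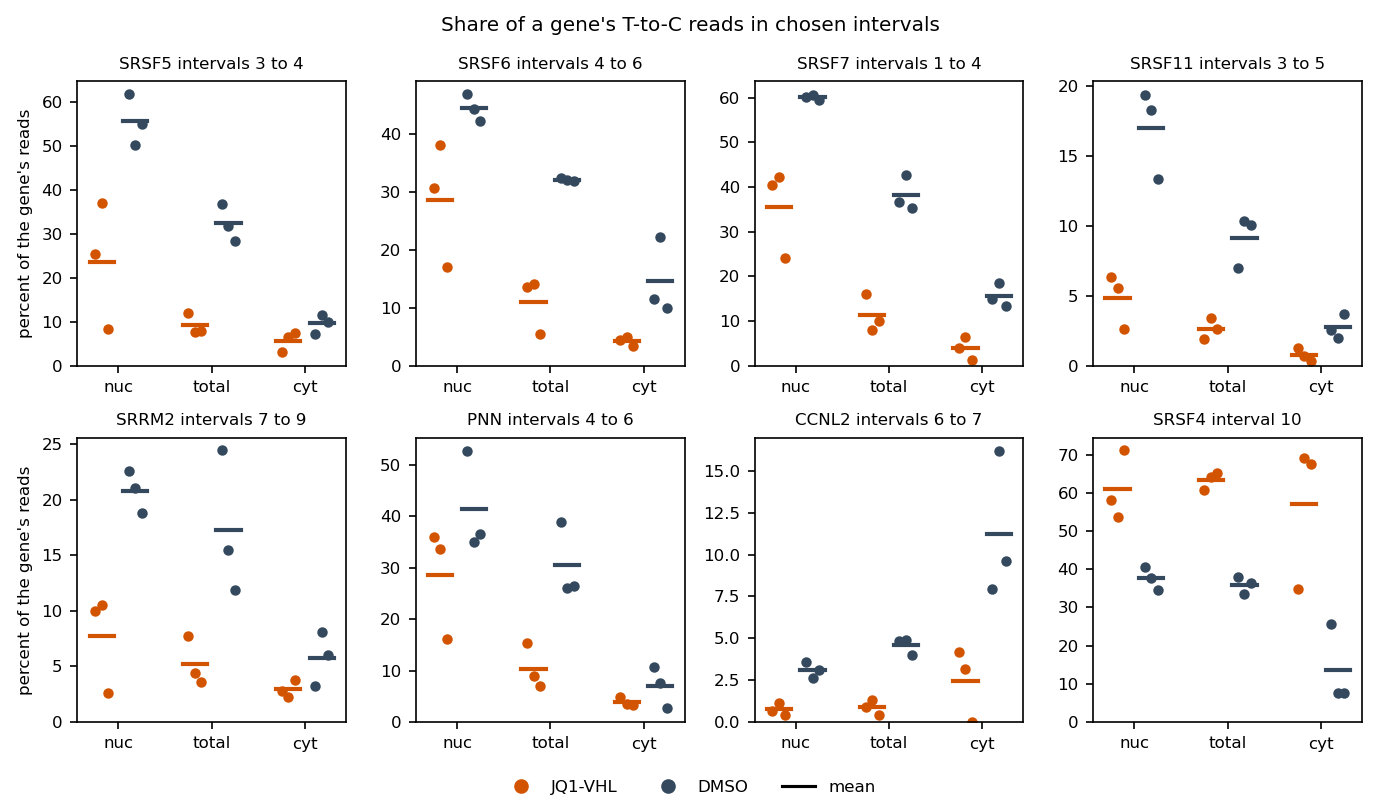
Share of a gene's reads (%) in the named intervals of 8 genes, by library, JQ1-VHL to the left of DMSO in each fraction. In total RNA the JQ1-VHL shares of SRSF6 intervals 4 to 6 average 11% and the DMSO shares 32.1%, while interval 10 of SRSF4 in cytoplasmic RNA averages 57.1% under JQ1-VHL and 13.6% under DMSO.

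Intervals differed most between nucleus and cytoplasm. Under DMSO 67 of the 347 were higher in nuclear RNA relative to their gene (19.3%, against 14.4% of all intervals) and 20 lower (5.76%, against 6.83%). Under JQ1-VHL 49 were higher (14.1%, against 10.5%) and 6 lower (1.73%, against 2.21%). limma called 12 of the 347 under each treatment (3.41% of all intervals under JQ1-VHL and 4.01% under DMSO), between 4 and 14 with 1 library left out under JQ1-VHL and between 5 and 17 under DMSO. The lowest counts came without JQ1-VHL nuclear replicate 2 (4) and without DMSO nuclear replicate 1 (5). Interval 6 of DDX46 was the furthest apart by p, at 5.34 (adjusted p = 5.08e-26) under DMSO and 4.99 (adjusted p = 3.93e-24) under JQ1-VHL. It held 17.7 ± 2.53% under JQ1-VHL and 19.8 ± 4.61% under DMSO of the nuclear DDX46 reads, and 0.563 ± 0.00160% under JQ1-VHL and 0.551 ± 0.146% under DMSO of the cytoplasmic ones. Interval 10 of SRPK1 was higher in the nucleus by 5.06 (adjusted p = 8.00e-12) under DMSO and 5.58 (adjusted p = 9.53e-14) under JQ1-VHL, although the gene as a whole was lower there. The largest differences under DMSO also included intervals 1, 5 and 19 of DDX46 (3.89, 3.39 and 6.09), 21 and 23 of CDK12 (4.08 and 5.69), 1 of SRSF11 (3.88) and 27 of SRPK2 (3.72), all higher in the nucleus. Those of CDK12 rest on few reads: intervals 21 and 23 together held 4, 2 and 0 reads in the DMSO cytoplasmic libraries. Interval 1 of TRA2A was lower in the nucleus, at -3.46 (adjusted p = 4.96e-05). Of the intervals that fell under the drug, interval 4 of SRSF11 (3.25), interval 3 of SRSF5 (3.09) and interval 4 of SRSF7 (2.35) were higher in the nucleus under DMSO, while interval 3 of LUC7L and interval 3 of SRSF11 were among those not called there. These were picked after their values were seen, and the comparisons share the DMSO libraries. Intervals 6 and 7 of CCNL2 were lower in nuclear RNA, at -1.51 and -2.08 under DMSO.

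Summed over the 39 genes, the share of all units of a library was 1.24, 1.30 and 1.11% in the JQ1-VHL nuclear libraries, against 1.13, 1.17 and 1.23% in the DMSO nuclear libraries, which overlap (exact two-sided permutation p = 0.6). In total RNA it was 0.941, 0.852 and 0.852% under JQ1-VHL, against 1.10, 1.10 and 1.05% under DMSO, with all JQ1-VHL values lower (exact permutation p = 0.1). In cytoplasmic RNA it was 0.862, 0.831 and 0.770% under JQ1-VHL, against 1.14, 1.24 and 1.09% under DMSO, again without overlap (exact permutation p = 0.1). The smallest p that 3 libraries against 3 can give is 0.1. The difference in the nuclear share, 0.0389 percentage points, turned to -0.00122 without JQ1-VHL nuclear replicate 2.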

How the data were processed

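Newly made, polyadenylated RNA was read as T-to-C changes in 150 bp read pairs (SLAM-seq). The builds hg19 (GRCh37) and dm3, and the tools HTSeq, HISAT2, DESeq2, Trimmomatic 0.39 and bcl2fastq, are listed in the submitters' processing notes, with no role for any of them. How T-to-C reads were called, and on which strand, is not given in the sources used here. The values deposited by the authors are a signal, T-to-C reads divided by 1 ERCC factor per library. Within a library each value was a multiple of 1 step to within 0.01 of a read, so read counts could be recovered for count tests. No per-sample column was left unused (0).

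Rows of a gene were summed. The test was limma 3.58.1 (R 4.3.3, eBayes with trend and robust) on log2(value + 1), with 1 group mean each, two-sided, Benjamini-Hochberg at 0.05, for genes with a mean of at least 10. The rescaled values were divided by median-of-ratios factors within a fraction, or over all 18 libraries for nuclear against cytoplasmic RNA. On the ERCC scale the prior degrees of freedom were infinite, so gene variances were taken as given and those calls carry more certainty than 3 libraries can give. The replicates are separate samples in the labels, which do not say that they were separate cultures, so p-values measure the spread between these samples. Alternatives were edgeR 4.0.16 and DESeq2 1.42.0 on recovered reads, pseudocounts of 0.1 and 10, no filter, the highest interval as the gene's value, a replicate block and leaving out each library. Batch and replicate numbers are the same in the labels, which pairs the samples. The deviations of same-numbered libraries correlated by 0.274, -0.145 and 0.287 in nuclear RNA, 0.222, 0.0754 and 0.156 in total RNA, and 0.062, -0.0533 and 0.0197 in cytoplasmic RNA.

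Intervals were tested within genes by limma's diffSplice, as planned, and by edgeR's diffSpliceDGE, which leads here because diffSplice recovered no changed interval when tested on simulated data, while diffSpliceDGE did. The simulation gave every interval the same spread between libraries beyond counting error. It therefore does not show how reliable the diffSpliceDGE calls are in these data. Values by library are given for members called in nuclear RNA or furthest apart between fractions under DMSO, largest first, and for CLK1, CLK4, SON and SRRM2. Intervals were named by the size of their within-gene difference, and exceptions are stated. The members, lists and naming rule were chosen with earlier results of these data known.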

Additional observations from a re-analysis of the deposited data

Results flagged for a closer look

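The rescaled drug effect differed between nuclear and cytoplasmic RNA for 3 of the 39 genes by the interaction test in limma: CCNL2 by 2.37, RBM39 by 1.37 and RBM25 by 0.98 on the log2 scale. On the ERCC scale the same differences were 0.51, -0.50 and -0.89, and none passed the test. In the nucleus the cytoplasmic check mRNAs rose after rescaling as well, 6 of 6 with a median of 1.41, and in the cytoplasm 2 of 6 did, with a median of 0.54; their part in the 3 differences was not tested.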

How the results depend on the processing

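Of the comparisons' counts and summed shares under all alternatives, 214 values stayed near the reported one, 49 moved and 1 reversed. On the ERCC scale the genes called were 3 in edgeR in nuclear RNA, 1 in total RNA under the replicate block, a pseudocount of 10, no filter and DESeq2, and 0 in cytoplasmic RNA with a pseudocount of 10, the highest interval and edgeR. DESeq2 called 14 genes between nuclear and cytoplasmic RNA under DMSO on the ERCC scale, and 8 for the rescaled difference of drug effects. With 1 library left out, ERCC-scale calls ranged from 0 to 10 in nuclear, 0 to 0 in total and 0 to 5 in cytoplasmic RNA, from 0 to 0 for the difference of effects, and between fractions from 12 to 18 under JQ1-VHL and 4 to 14 under DMSO. Rescaled calls ranged from 14 to 18, 9 to 15 and 7 to 12 in nuclear, total and cytoplasmic RNA, from 2 to 7 for the difference of effects, and from 28 to 30 and 25 to 29 between fractions under JQ1-VHL and DMSO. Where leaving out a library leaves 1 group with 2 samples, the spread was pooled over all groups.

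Against limma's interval counts of 0, 0, 0, 12 and 12, diffSpliceDGE called 13, 22 and 11 intervals in nuclear, total and cytoplasmic RNA, and 55 and 87 between fractions under JQ1-VHL and DMSO. A pseudocount of 0.1 gave 1 in total and 3 in cytoplasmic RNA, and an interval mean of at least 50 gave 3 between fractions under each treatment. Leaving out a library gave 0 to 0 in the drug comparisons and 4 to 14 and 5 to 17 between fractions under JQ1-VHL and DMSO; diffSpliceDGE was not run with libraries left out. The replicate block gave 9 nuclear and 1 total call on the ERCC scale, and moved no other count by over 1.5 times.

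For the members' share of a library, the JQ1-VHL minus DMSO difference reversed to -0.00122 in nuclear RNA without JQ1-VHL nuclear replicate 2 (range -0.00122 to 0.0923 with 1 library left out). It was -0.109 in total and -0.232 in cytoplasmic RNA with the highest interval as a gene's value, and -0.206 in cytoplasmic RNA without SRSF3. The ranges with 1 library left out were -0.234 to -0.190 and -0.372 to -0.297 in total and cytoplasmic RNA. The cause of these moves was not tested. Among single genes and intervals, leaving out a library kept 233 values on their side of the threshold and lost 37 calls; the other alternatives kept 352, lost 17 and gained 10. Depth limits the low genes most: CLK4 had 1 to 76 reads in the JQ1-VHL libraries.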

Other observations

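A further list of 49 genes of SR-related, spliceosome and speckle proteins that are not among the 39 was read in the same way, and 42 of the 43 in the table were tested. In new nuclear RNA 12 were lower under JQ1-VHL on the ERCC scale (28.6%, against 33.7% of all genes) and 0 higher (against 0.177%), with a median of -1.55. The lowest were RBM15, which recruits the RNA methylation complex, at -3.41 ± 0.98 (adjusted p = 0.00672), U2AF2, which binds the polypyrimidine tract, at -3.35 ± 0.95 (adjusted p = 0.00578), and CWC22, which loads a helicase of the exon junction complex, at -3.07 ± 0.88 (adjusted p = 0.00676). After rescaling these 3 were still lower, at -1.76, -1.64 and -1.35. Rescaled, 8 of the 42 were higher (19.0%, against 14.8% of all genes) and 4 lower (9.52%, against 13.4%). U2SURP and RSRC1 rose by 0.80 each and U2AF1, the partner of U2AF2 at the splice site, by 0.78 on that scale, where ERCC-scale changes are lower throughout. Between nuclear and cytoplasmic RNA after rescaling, 13 were higher under JQ1-VHL (31.0%, against 38.7% of all genes) and 14 lower (33.3%, against 26.0%). Under DMSO 13 were higher (31.0%, against 33.0%) and 19 lower (45.2%, against 23.7%).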
